A study of Drosophila melanogaster with 3 samples.

Results

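The genes examined here are 34 transcription factor genes that lay out the body plan of the Drosophila melanogaster embryo, out of 13945 protein-coding genes and 18164 genes of all kinds on the 6 main chromosome arms. They were chosen by name, from the maternal gradients to the genes of segments, germ layers, neural columns and appendages. No measured value was used as a criterion, but earlier results of these data were known when they were chosen. All 34 were found in the annotation, 33 by symbol and 1, hairy (written h here, hry in the annotation), through a synonym. Chromatin immunoprecipitation with sequencing recorded where the protein CG3995 sat on their DNA. The embryos came from a fly line that stably carried CG3995 with green fluorescent protein (eGFP) fused at its C terminus, and an antibody against that tag was used. They were of mixed sex and aged 0 to 24 hours, and the chromatin was sonicated to fragments of 200 to 800 bp. The 3 samples were biological replicates of this 1 group. No second genotype, age or treatment was among them, and the control library that the file notes name was not analysed here. Whole embryos were used, so strong binding in a few cells and weak binding in many cannot be told apart. No immunoprecipitation from embryos without the tag was analysed here.

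Embryo patterning in flies runs as a cascade. Maternal proteins such as Bicoid and Caudal form gradients, gap genes read these gradients and divide the egg into broad domains, and pair-rule genes turn the domains into stripes that position the segment polarity genes. Along the other axis, Twist and Snail set up the mesoderm, Zerknüllt the extraembryonic tissue, and vnd, ind and Dr the columns of the nervous system. Most of these genes are switched by enhancers that lie several kilobases from a promoter, and many are active in only some cells and stages. Broadly expressed genes, by contrast, are mostly controlled by sequence close to their starts.

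The sequences around the summits (the base with the highest signal in a region) that the results turn on are given here as the reference genome has them, in dm6 on the plus strand. Each spans 101 bases, 50 to each side of the summit. The tin promoter, slp2, h, kni and ems regions are the 5 regions of these genes that passed the authors' threshold. The bcd promoter is shown as a promoter just under that threshold. The region named h far lies in the same intergenic stretch as h, with a noncoding gene as its nearest gene. Capitals mark each copy of the 8-base core promoter sequence GGTCACAC, known as Motif 1.
tin promoter, chr3R:21378706-21378806: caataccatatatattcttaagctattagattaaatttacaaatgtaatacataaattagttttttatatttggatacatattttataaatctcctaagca
bcd promoter, chr3R:6759692-6759792: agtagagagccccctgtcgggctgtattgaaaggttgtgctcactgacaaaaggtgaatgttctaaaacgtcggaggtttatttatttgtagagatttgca
slp2 distal, chr2L:3832470-3832570: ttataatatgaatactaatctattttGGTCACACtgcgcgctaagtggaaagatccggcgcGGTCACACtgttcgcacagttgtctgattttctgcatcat
h distal, chr3L:8683033-8683133: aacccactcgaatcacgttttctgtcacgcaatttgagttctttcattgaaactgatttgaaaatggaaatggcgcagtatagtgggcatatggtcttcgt
h far region, chr3L:8688806-8688906: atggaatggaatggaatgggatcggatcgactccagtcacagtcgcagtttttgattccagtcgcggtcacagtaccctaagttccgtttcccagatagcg
kni distal, chr3L:20673792-20673892: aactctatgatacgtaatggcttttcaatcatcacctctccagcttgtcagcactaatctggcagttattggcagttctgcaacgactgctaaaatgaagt
ems distal, chr3R:13914871-13914971: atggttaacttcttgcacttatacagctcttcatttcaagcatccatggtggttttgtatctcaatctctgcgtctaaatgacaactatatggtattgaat

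All of these windows lay in intergenic DNA. The tin window was the poorest in G and C of the 7, with 18.8%, and the h far window the richest, with 50.5%. The others had 42.6% (bcd), 42.6% (slp2), 40.6% (h), 41.6% (kni) and 35.6% (ems), against a median of 37.6% over all thresholded regions.

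CG3995 was rarely found at the promoters of the patterning genes. A promoter summit here lay within 500 bp of a start of the gene, a body summit lay elsewhere in its span, and a distal summit lay outside the span with that gene's start the nearest of all. In the thresholded list, which holds the 4260 regions that the authors kept as reproducible between replicates, 1 of the 34 genes (2.94%) had a promoter summit, against 28.2% of all protein-coding genes. The 1 gene was tin (tinman), a homeobox gene of the heart and dorsal mesoderm. No patterning gene had a thresholded summit in its body, where 5.35% of protein-coding genes had one. By contrast, 4 genes (11.8%) had a thresholded distal summit, against 2.04% of protein-coding genes, namely h, kni, slp2 and ems. In all, 5 of the 34 (14.7%) had a thresholded summit of some class, against 32.5%. No set test was run on these counts, which describe the list beside the background.

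**Figure D1:**
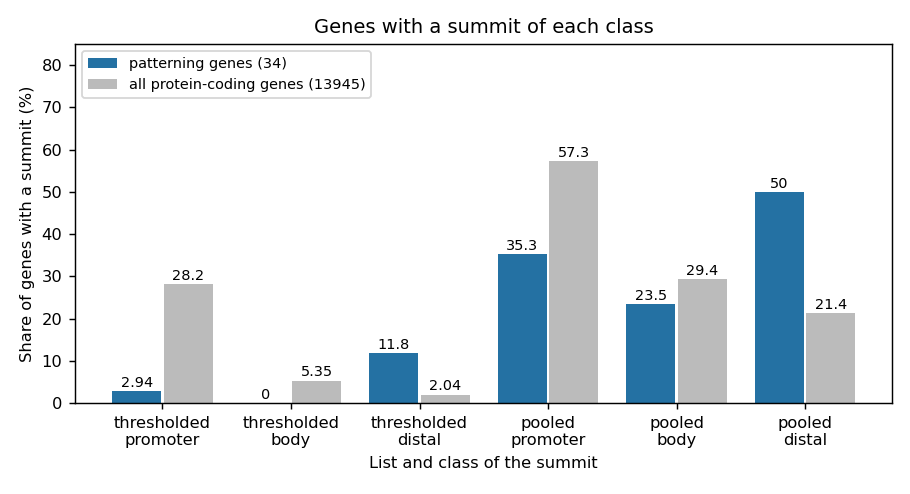
Share of genes (%, vertical axis) with a summit of each class in the thresholded list or in the longer pooled list, for the 34 patterning genes (blue) and for all 13945 protein-coding genes (grey). The blue bar is lower than the grey one for promoter and body summits of both lists and higher for distal summits, at 11.8% against 2.04% in the thresholded list and 50% against 21.4% in the pooled list.

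The shortage at promoters was seen in each replicate. Replicate 1 had 1 patterning gene (2.94%) with a promoter region among its 4260 strongest, against 28.0% of protein-coding genes. Replicate 2 also had 1 (2.94%), against 28.0%. Replicate 3 had 3 (8.82%), against 26.3%. The mean was 1.67 ± 1.15 genes (SD, n = 3), and it fell to 1 without replicate 3. The gene tin was called in every replicate, and Dll and h were called in replicate 3 alone. At any rank the gap was narrower. Promoter regions were listed for 13 patterning genes (38.2%) in replicate 1 against 58.0%, for 12 (35.3%) in replicate 2 against 57.0%, and for 8 (23.5%) in replicate 3 against 51.2%. Distal regions among the 4260 strongest went the other way, with 3 genes (8.82%) in replicate 1 against 2.02%, 2 genes (5.88%) in replicate 2 against 1.86%, and 3 genes (8.82%) in replicate 3 against 2.09%. The h distal region was the only one of these in all 3 replicates.

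The longer pooled list, called by the authors from all replicates together with background regions included, held 27868 regions. Of the patterning genes, 22 (64.7%) had at least 1 pooled region, against 71.9% of protein-coding genes, and 12 (35.3%) had a pooled promoter region, against 57.3%. Body regions were listed for 8 genes (23.5%), against 29.4%, and distal regions for 17 (50%), against 21.4%. The 12 with a promoter region were bcd, cad, oc, btd, h, en, twi, tin, vnd, Dr, Dll and ap. No other gene had a start within 500 bp of any of their 17 promoter summits. Most of the 90 pooled regions of patterning genes were weak. Of the 90, 55 (61.1%) had a signal under the median of the pooled list. Their body and distal regions had median signals of 44.1 and 41.1, close to the 44.1 and 41.7 over protein-coding genes. For promoter regions the median was 55.9, against 79.7. Signal is the authors' measure of enrichment over the control file, has no unit, and is used here only to rank regions within a list.

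**Figure D2:**
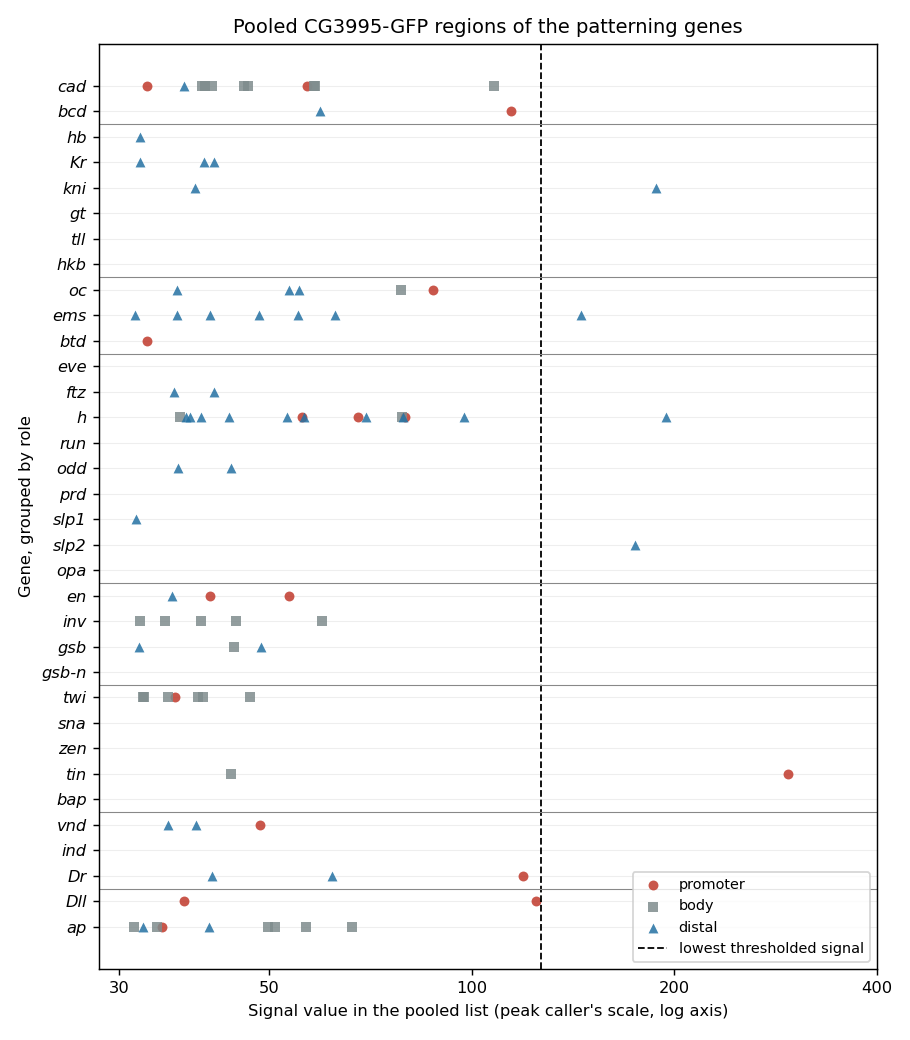
Signal of every pooled region (horizontal log axis, the peak caller's scale) of the 34 genes (vertical axis, grouped by role), with promoter regions as red circles, body regions as grey squares and distal regions as blue triangles. Only the tin promoter and 1 distal region each of kni, ems, h and slp2 lie right of the dashed line, the lowest thresholded signal (127), and 12 genes have no symbol.

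The regions of patterning genes were placed differently from those of other genes. With each summit counted once for each gene it belongs to, 17 of the 90 pooled regions (18.9%) were at promoters, 30 (33.3%) in bodies and 43 (47.8%) distal. Over all protein-coding genes the shares were 36.1%, 46.7% and 17.1%. In the thresholded list the promoter share was 20.0% (1 of 5) for the patterning genes and 76.7% for protein-coding genes. Taking the 4260 strongest regions in the replicates 1, 2 and 3 gave the patterning genes a promoter share of 20.0% (1 of 5 regions), 33.3% (1 of 3) and 42.9% (3 of 7), or 32.1 ± 11.5% (SD, n = 3). The same shares over protein-coding genes were 76.9%, 77.2% and 74.8%.

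The patterning genes also stand in long stretches with few other genes, which bears on any count of distal regions. The bases for which a patterning gene has the nearest start came to a median of 14.3 kb, against 3.74 kb for protein-coding genes, and 31 of the 34 exceeded that value. Per length, thresholded summits were sparse in this DNA, with 5 in 613 kb or 0.816 per 100 kb, against 3.79 per 100 kb for protein-coding genes. More than 500 bp from any start, body and distal summits together came to 0.702 and 1.02 per 100 kb. Distal summits alone, over that DNA outside the gene's own span, came to 1.04 per 100 kb (4 summits in 386 kb), against 0.667 for protein-coding genes. The distal gap was thus narrower per length than per gene. Among the 4260 strongest regions, replicates 1, 2 and 3 gave distal densities of 0.778, 0.519 and 1.04 per 100 kb (0.778 ± 0.259, SD, n = 3), against 0.652, 0.620 and 0.717. Replicate 2 fell below the background and the others above it, and these densities rest on 3, 2 and 4 regions. In the pooled list the distal densities were 11.2 and 12.2 per 100 kb. The start of a patterning gene was a median of 20777 bp from the nearest thresholded summit of any gene, against 5314 bp for protein-coding genes, and 28 of the 34 were more than 10 kb away. The extremes were tin, at 221 bp, and the gap gene Kr, at 140996 bp.

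Within the patterning genes, promoter regions ranked above distal ones in each replicate. Ranks are given as percentiles of a list, from 0 for the strongest region to 100 for the weakest. In replicate 1 the median percentile was 44.5 for 17 promoter regions, 52.2 for 23 body regions and 72.6 for 45 distal regions. In replicate 2 it was 49.3 for 14 promoter, 63.0 for 31 body and 65.0 for 48 distal regions. In replicate 3 it was 33.9 for 8 promoter, 69.6 for 34 body and 59.6 for 53 distal regions. The order of body and distal regions thus differed between replicates, whereas promoters came first in all 3. Promoter minus distal was −28.1, −15.7 and −25.7 percentile points, or −23.1 ± 6.59 (SD, n = 3). The exact two-sided permutation test over the replicates gave p = 0.25, the smallest it can give with 3 replicates, so no difference can pass the usual threshold in this design. Over protein-coding genes the promoter medians were 26.2, 26.0 and 26.0 and the distal medians 62.9, 62.7 and 62.4 in the 3 replicates. The patterning gene promoters were weaker than that in every replicate.

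**Figure D3:**
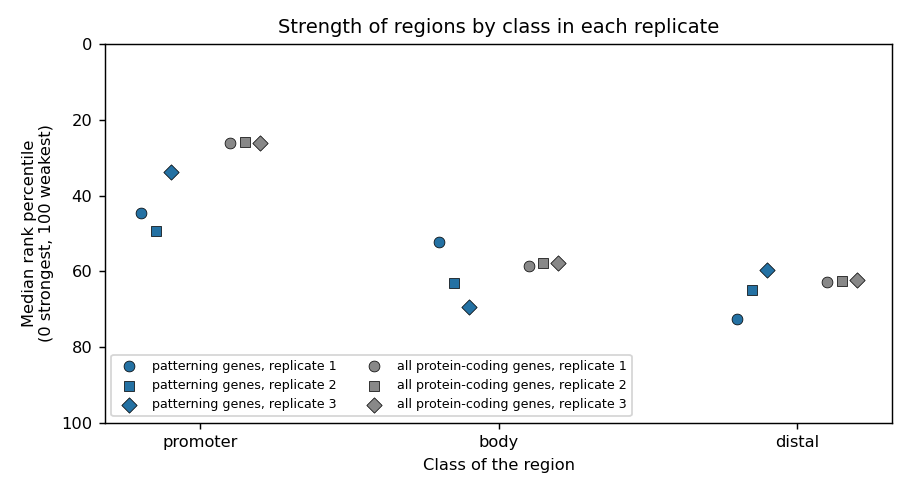
Median rank percentile (vertical axis, 0 strongest at the top, 100 weakest) of promoter, body and distal regions in replicates 1 to 3 (circle, square, diamond), for patterning genes in blue and protein-coding genes in grey. Blue promoter points, at 33.9 to 49.3, lie below all grey promoter points, at 26.0 to 26.2, whereas the body and distal points of both colours overlap in range.

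Agreement between replicates followed the same order. Of the pooled regions of patterning genes, 9 of 17 promoter regions (52.9%), 11 of 30 body regions (36.7%) and 14 of 43 distal regions (32.6%) overlapped a region in all 3 replicate lists by at least 1 bp. For protein-coding genes the shares were 68.8%, 35.9% and 29.1%. Overlapping pooled regions of a patterning gene, as at the Dll and h promoters, were counted separately, at times through the same replicate region. All 5 thresholded regions of patterning genes overlapped a region in every replicate. That list was itself kept for reproducibility between replicates, so this overlap adds no separate evidence.

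The tin promoter carried the strongest region of the 34 genes. The gene (FBgn0004110) lies on the plus strand of 3R from 21378977 to 21381970, and encodes the NK homeodomain factor that specifies the heart. The region runs from 21378661 to 21378858 with its summit 221 bp upstream of the start. Its signal was 295 in the pooled list, at rank 1522. In the replicate lists it had signals of 131, 87.0 and 86.9 in replicates 1, 2 and 3, at ranks 1556, 1675 and 1388, with the summit at −177, −177 and −180 bp from the start. The 3 ranks were close to each other and to the pooled rank. A far stronger region, with a signal of 12185 and rank 55, had its summit 1287 bp away at the promoter of mod(mdg4), a gene for BTB-domain chromatin proteins. Its part in the tin region was not tested. Another tin region, in an intron, was weak, with a signal of 44.0. Its neighbour bap (bagpipe), the NK homeobox gene of the visceral mesoderm, had no pooled region.

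**Figure D4:**
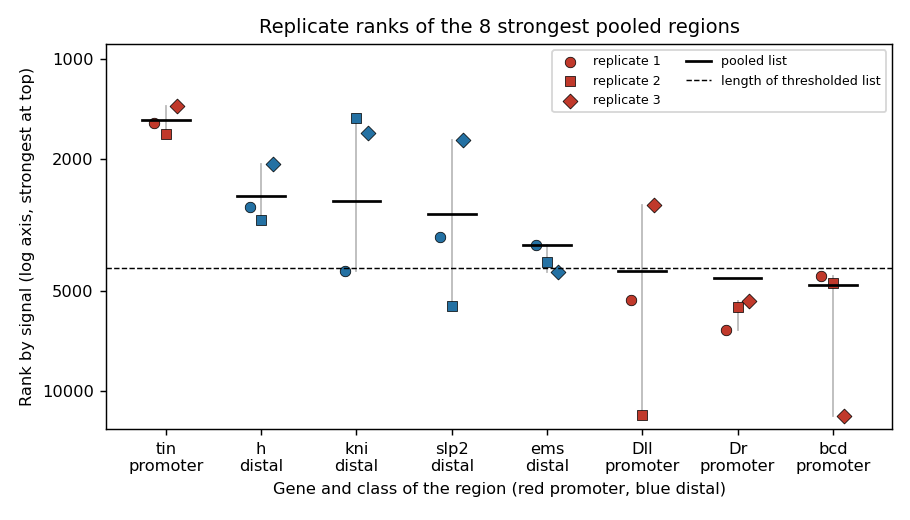
Rank by signal (vertical log axis, strongest at the top) of the 8 strongest pooled regions of the patterning genes in replicate 1 (circle), 2 (square) and 3 (diamond), with the pooled rank as a bar and rank 4260 as a dashed line. Ranks of the tin and h regions lie close together and above the line, whereas those of slp2, Dll and bcd spread across or under it.

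Among the pair-rule genes, which set up the segments in alternating stripes, h had the most regions of all 34 genes. It (FBgn0001168, plus strand of 3L, 8675759 to 8679253) encodes a basic helix-loop-helix repressor that works with the corepressor Groucho. Its strongest region, 8682875 to 8683290, had its summit 7128 bp downstream of the start, in intergenic DNA beyond the gene. The signal was 194 in the pooled list (rank 2579) and 82.6, 53.9 and 62.9 in replicates 1, 2 and 3, at ranks 2788, 3051 and 2064. All 3 replicates thus placed it among their 4260 strongest regions. The gene had 15 pooled regions in all, 3 at the promoter, 2 in the body and 10 distal, spread from 7448 bp upstream to 7327 bp downstream, with a median signal of 56.3. Of these, 8 overlapped regions of all 3 replicates. The 2 promoter regions upstream of its start overlap each other, but not the one 319 bp downstream (signal 55.9). The strongest, 238 bp upstream, had a signal of 79.7 (rank 7324) and matched a region of replicate 1 at rank 7203. In replicates 2 and 3, 1 region each (ranks 14423 and 3215) overlapped both this region and the next, 21 bp upstream (signal 67.9), and had its summit nearer to the latter.

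Further downstream of h lay other thresholded regions nearer to a noncoding gene, and the first of them was stronger than the h region. A thresholded region on 3L from 8688708 to 8689057 had its summit 12901 bp downstream of the h start and 3847 bp from the start of lncRNA:CR44526. Its signal was 963 (rank 431), and its replicate ranks were 418, 444 and 436, close to each other and to the pooled rank. Another, from 8696417 to 8696832, lay 20670 bp downstream of h and 3922 bp from lncRNA:CR44526, with a signal of 158 (rank 3320) and replicate ranks of 3164, 3758 and 3348. As seen from h, it lay beyond the start of lncRNA:CR44526, and its signal was under the 194 of the h region. Of protein-coding genes, h has the nearest start to both, but neither was counted for h, because the nearest start of all belonged to the noncoding gene.

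The forkhead pair-rule gene slp2 (sloppy paired 2, FBgn0004567, plus strand of 2L, 3836840 to 3839185) had 1 pooled region, and it passed the threshold. It lies from 3832312 to 3832727, 4320 bp upstream of slp2 and between it and its paralog slp1. The signal was 175 (rank 2925), and in replicates 1, 2 and 3 it was 70.0, 33.3 and 72.0, at ranks 3425, 5515 and 1745. Replicate 2 placed it outside its 4260 strongest regions, and the others placed it inside. The paralog slp1 had 1 weak region of its own (signal 31.8). Of the other pair-rule genes, ftz, a homeobox gene, had 2 distal regions with signals of 36.2 and 41.5. The zinc finger gene odd also had 2, with 36.7 and 43.9. No pooled region was listed for the homeobox gene eve, the Runt-domain gene run, the paired-box gene prd or the Zic-type zinc finger gene opa. In the role as a whole, 5 of 9 genes had a pooled region and 1, h, a promoter region. Over protein-coding genes the shares were 71.9% and 57.3%, and the differences were not tested.

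Of the 6 gap and terminal genes, 3 had a pooled region and none had one at a promoter. The shares over protein-coding genes were 71.9% and 57.3%, and with so few genes the differences were not tested. The gap gene kni (knirps, FBgn0001320, minus strand of 3L, 20692330 to 20695378) encodes a zinc finger repressor of the nuclear receptor type. Its thresholded region, 20673634 to 20674049, lies 20714 bp downstream of the start, with a signal of 188 (rank 2671). In replicates 1, 2 and 3 the region with the nearest summit had signals of 57.4, 94.9 and 74.3, at ranks 4349, 1502 and 1667. A stronger thresholded summit stood 201 bp from the kni one, with a signal of 387 (rank 1092). In replicate 2, 1 region covered both, with its summit 120 bp from the kni one and nearer to the stronger one, so that replicate gives no value for the kni region alone. The nearest start to the stronger summit, at 20735 bp, was that of lncRNA:CR44685. Both summits lay about equally far from kni and the noncoding gene, so this assignment is a close one. The gap gene Kr, a zinc finger repressor, had 3 weak distal regions, all in introns of CG9380, with signals of 32.1 to 41.5, and hb, the zinc finger gene of the anterior gap domain, had 1 with 32.2. The gap gene gt (a leucine zipper repressor) and the terminal genes tll (an orphan nuclear receptor) and hkb (a zinc finger gene) had none.

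The head gap gene ems (empty spiracles, FBgn0000576, plus strand of 3R, 13901853 to 13904620) is a homeobox gene of the head and tracheal system. All 7 of its pooled regions were distal. The strongest, 13914713 to 13915128, had its summit 13068 bp downstream, with a signal of 145 (rank 3634). It had signals of 66.5, 42.6 and 35.5 in replicates 1, 2 and 3, at ranks 3635, 4090 and 4364. The ranks were close together and straddled 4260. With replicate 1 left out, only thresholded regions overlapping the 4260 strongest of both other replicates counted. Then ems and slp2 dropped, and 3 patterning genes, tin, h and kni, had a thresholded summit in place of 5. In replicate 2 the kni region counted through the region it shares with its stronger neighbour. Of the other head gap genes, oc (orthodenticle, a homeobox gene) had 5 regions, led by its promoter with 87.7 (rank 6493; 5606, 15698 and 11025 in the replicates). The zinc finger gene btd had 1 promoter region, with 32.9.

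Just outside the threshold stood 3 promoters. The lowest thresholded signal was 127. The first was Dll (Distal-less, the homeobox gene of the limb primordia), whose promoter summit 31 bp upstream had a signal of 125 (rank 4332), with replicate signals of 48.5, 19.6 and 50.6 at ranks 5312, 11753 and 2740. The second was Dr (the msh homeobox gene of the dorsal neural column), with a summit 22 bp upstream, a signal of 119 (rank 4547), and replicate signals of 41.3, 33.0 and 30.7 at ranks 6539, 5586 and 5353. The third was bcd (bicoid, FBgn0000166, minus strand of 3R, 6755842 to 6759466), the homeobox gene of the anterior maternal gradient. Its summit lay 276 bp upstream, with a signal of 114 (rank 4781) and replicate signals of 56.0, 37.9 and 19.0 at ranks 4492, 4723 and 11844. The replicates placed Dr alike, whereas Dll was low in replicate 2 and bcd low in replicate 3.

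The posterior maternal gradient gene cad (caudal), a homeobox gene, had 11 pooled regions, 8 of them in its body. The strongest lay in an intron 10065 bp into the gene, with a signal of 108 (rank 5082) and replicate signals of 59.7, 14.9 and 24.4 at ranks 4140, 18788 and 7591. Replicate 1 alone placed it among its 4260 strongest. The nearest start to that summit was that of Pomp, at 6697 bp. The cad promoter regions were weaker, with signals of 57.0 and 33.0.

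**Figure D5:**
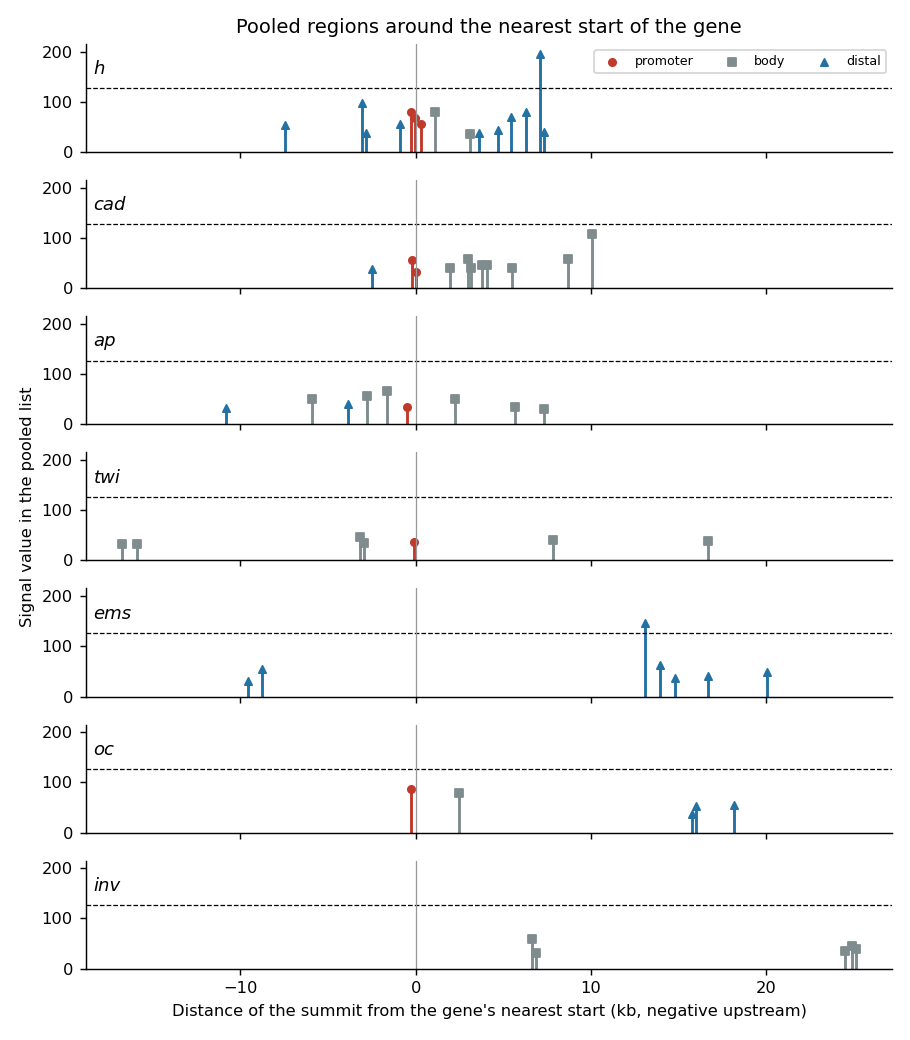
Signal (vertical axis) and distance of the summit from the gene's nearest start (horizontal axis in kb, negative upstream) for the 7 genes with at least 5 pooled regions, with promoter, body and distal regions in red, grey and blue. Only 1 region of h and 1 of ems rise above the dashed line, the lowest thresholded signal of 127.

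The 7 genes with 5 or more pooled regions held 59 of the 90. They were h, cad, ap, ems, twi, oc and inv, and 15 other genes had 1 to 4. The same count over protein-coding genes is not given here, so this spread cannot be called particular to the patterning genes. The bases with the gene's start nearest came to 21.7 to 39.1 kb for h, ems, ap, inv and oc. They came to 13.8 kb for cad and 6.88 kb for twi. Some regions of the same gene also overlapped each other. The LIM-homeobox gene ap (apterous), which marks dorsal wing cells and some neurons and muscles, had 9 regions with signals of 31.5 to 66.4. The basic helix-loop-helix gene twi (twist), which specifies the mesoderm, had 7, all weak at 32.5 to 46.9, and 1 of them overlapped regions in all replicates. Its annotated span is long and holds other genes, and all its regions but the promoter one (signal 36.2) had the start of CG42741 or CG9896 nearer. The strongest lay 10 bp from the start of CG42741 and another 199 bp from it, so these are promoter regions of that gene. The homeobox gene inv (invected) had 5, all in its body, at 32.1 to 60.0. Its paralog en (engrailed), which marks posterior compartments, had promoter regions with signals of 53.5 and 40.9 and a distal one with 35.9. The segment polarity Pax gene gsb had 3 regions at 32.0 to 48.7, and its paralog gsb-n none. The ventral column homeobox gene vnd had 3 at 35.4 to 48.5. In total 8 regions counted for a patterning gene had another gene's start nearer to the summit, all of them in the spans of twi and cad.

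No pooled region of any class was listed for 12 of the 34 genes. These were gt, tll, hkb, eve, run, prd, opa, gsb-n, sna, zen, ind and bap. The remaining 22 (64.7%) had a pooled region, against 71.9% of protein-coding genes. Of the 12, 5 (gt, hkb, eve, prd and ind, the homeobox gene of the intermediate neural column) were absent from every replicate list as well. No such count over protein-coding genes is given here. The bases with their start nearest came to 2.27 to 11.0 kb, under the median of 14.3 kb for the 34. The other genes of the 12 appeared in replicate lists only. The strongest such region was 3215 bp upstream of sna, the zinc finger repressor of the mesoderm, at rank 7840 of replicate 3. Next came 2 body regions of opa in replicate 3, at ranks 9751 and 10624. The homeobox gene zen, of the amnioserosa, was listed in replicate 3 alone at rank 18083. None of these regions was listed in the pooled list, which was called on all replicates.

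The base sequence at these summits was searched for 8 short consensus sequences, on both strands, within 50 bp. The promoter element DRE (TATCGATA) was found at 0 of the 90 pooled regions of patterning genes, against 1.91% of all pooled and 7.02% of all thresholded regions. Most of the 90 were body or distal regions. Over protein-coding genes, DRE was found at 4.85% of promoter, 0.413% of body and 0.412% of distal pooled regions, so 0 is not read as a shortage. Motif 1 (GGTCACAC) was found at 1 of 90, against 1.37% of all pooled and 3.40% of all thresholded regions. That region was the slp2 distal one, with copies starting 24 bases before and 11 bases after the summit, and 0.359% of the distal regions of protein-coding genes held this sequence. The GAGA repeat (GAGAGAG) was found at 5 of 90 regions, 4 of them among the 17 promoter regions (oc, vnd, en and btd), against 1.83% of the promoter regions of protein-coding genes. These promoter windows were also richer in G and C, with a median of 54.5% against 40.6% for promoter regions of protein-coding genes, and the part of base composition in the GAGA count was not tested. The body and distal windows had medians of 40.1% and 40.6%.

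Sequences known for factors of the patterning cascade were found at few of these summits, as at few pooled regions of all genes. The Zelda site (CAGGTAG) was found at 0 of 90, against 0.459% of all pooled regions. The homeodomain core (TAATTA) was found at 4 of 90, against 6.41%, and the Bicoid site (TAATCC) at 2, near h and gsb, against 2.88%. The E-box CAGGTG was found at 1 and the E-box CACATG at 1, against 3.53% and 4.57%. A match describes these letters only, and with 90 windows counts this small cannot be told from the background.

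Other genes of the patterning pathways were taken in 3 lists, of co-regulators, maternal signals and signalling genes. The lists were drawn up with earlier results of these data known. Each had a larger share of promoters with a thresholded summit than the 2.94% of the 34. Of 16 broad co-regulators of transcription, 9 (56.3%) had a thresholded promoter summit, and 12 had a thresholded summit of some class. Of 18 genes for maternal signals, 6 (33.3%) had a promoter summit and 7 a summit of some class. Of 20 genes for signalling between cells, the counts were 5 (25.0%) and 10. The background was 28.2% for promoters and 32.5% for any class, and the differences between these lists, the 34 and the background were not tested. The strongest of these promoters was that of nos (nanos, the posterior maternal determinant), with a signal of 17397, where CG11779 also had a start within 500 bp. The CBP acetyltransferase gene nej followed with 12310. Next were spi, an EGF receptor ligand (1038, with msb1l), and gro, the corepressor that Hairy recruits (559).

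The remaining named promoters were far weaker and close to that of tin. They were Trl, the GAGA factor gene (297), Mad, a Smad of the Dpp pathway (295, with gkt), shn, a zinc finger cofactor of Mad (289), HDAC1, a histone deacetylase (281, with Src64B), and Chi, a partner of LIM-homeodomain proteins (279, with MAN1). Below these were ea, a protease of the dorsal-ventral system (278, with CG6236), sax, a BMP receptor (257, with Nop17l), and smo, the Hedgehog signal transducer (257, with CG17078). Each gene in brackets had its own start within 500 bp of the same summit, so these summits cannot be given to a single gene, unlike the promoter summits of the 34.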

How the data were processed

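Chromatin immunoprecipitation was measured in 3 biological replicates of 1 group, so no group comparison or pairing was possible. The deposited dm6 lists hold, for each region, a signal value (a score of the authors' peak caller) and a summit. Per the file notes, regions were called on each replicate and on the pooled replicates with a control file, and the thresholded list was kept by the irreproducible discovery rate procedure. The sources used here do not give the aligner, the caller or the threshold. Its 4260 regions were the 4260 strongest of the pooled list. The replicate lists held 30000, 28051 and 24171 regions, and read depth was unknown. The round count of replicate 1 may be a limit on list length, so its counts at any rank may be too low and its percentiles refer to a list that may be cut short. No line was shared between replicate lists. Lists on dm3 were not used, and 0 per-sample columns were left unused.

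Gene starts were taken from the Ensembl annotation, release 115 (BDGP 6.54). Sequence was read from RefSeq's genome of that assembly, whose X arm has 23542271 bp as in dm6. Coordinates are 1-based. Summits were assigned with a promoter distance of 500 bp. A pooled region took its replicate rank from the overlapping region (1 bp) with the nearest summit. Signal scales differ between lists, so replicates were compared by rank. The named genes were all 34, with those bearing a thresholded summit in full, plus up to 12 promoters of the wider lists (54 genes) by signal. Members, lists and alternatives were chosen with earlier results of these data known. Scripts used Python 3.11.15, pandas 2.3.3, numpy 2.4.6, scipy 1.17.1 and matplotlib 3.10.9, and were tested on simulated regions.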

Additional observations from a re-analysis of the deposited data

How the results depend on the processing

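No paired analysis was possible because there was 1 group. The count of patterning genes with a thresholded promoter summit stayed at 1 under each alternative except a promoter distance of 200 bp, which gave 0 because the tin summit lies 221 bp from its start, and it was 1 without each replicate. Genes with any thresholded summit numbered 1 in the stronger 2130 of the thresholded regions, and 3 to 4 without each replicate in turn. The gene kni was counted without each replicate, since any overlap with a strongest region was enough. Its nearest-summit region ranked 4349 in replicate 1 and was shared with the stronger neighbouring summit in replicate 2. The place of kni in these counts may thus rest on that neighbour. The promoter share of thresholded summits was 0% at 200 bp, 100% (tin alone) in the stronger 2130, and 25.0% to 33.3% without each replicate. Density was 0.163 per 100 kb in the stronger 2130, and 0.490 to 0.653 without each replicate. The mean number of genes with a promoter region among the strongest of a replicate was 1 for the strongest 2130, 4.33 for the strongest 8520, and 1 to 2 without each replicate. The promoter minus distal percentile was −33.7 at 200 bp, −16.4 with protein-coding starts only, −31.2 with 1 start per gene, and −26.9 to −20.7 without each replicate. In the stronger 2130, tin alone was left and no patterning gene had a distal summit. Among summits, neither the low promoter share nor the high distal share was thus seen there. That promoter share rests on 1 summit, and the count of genes with a promoter summit was still 1 of 34. The share of protein-coding genes with a promoter summit in the stronger 2130 is not given here. The kni region was not counted with 1 start per gene, or with 1 summit per merged region, and 4 genes then had a thresholded summit. The causes were not tested beyond those stated.

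The lists carry no read counts, so weak regions and missing ones cannot be separated by depth, and the 5 thresholded regions limit every share made from them.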
